A study of Mus musculus with 6 samples.

Results

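The genes described here are the Th2 lineage genes of mouse CD4+ T cells, chosen by name. They are the cytokine genes *Il4*, *Il5*, *Il13*, *Il9* and *Il24*, the transcription factor genes *Gata3* and *Maf*, and the receptor genes *Il1rl1* and *Il4ra*. All 9 were listed among the 35602 genes of the count table and among the 34714 genes of the replicate 1 tables. Th2 cells are the helper T cells of type 2 immunity, the response to worms and allergens. Interleukin-4 signals through its receptor and STAT6 to raise GATA3, and GATA3 opens the locus that carries the *Il4*, *Il13* and *Il5* genes. The cytokines then act on B cells, eosinophils, mast cells and epithelia.

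RNA was sequenced from CD4+ T cells of mouse spleen activated through CD3 and CD28 over 72 h and given either MAPK13-IN-1, which inhibits the p38 family kinase MAPK13, or DMSO, its solvent. There were 3 libraries per group. Replicates 2 and 3 came from wild-type (WT) spleen and poly-T bead libraries, the inhibitor being given at 17.1 µM. For these the labels place the addition of inhibitor or DMSO after day 1, whereas the series design has it present throughout stimulation. Replicate 1 of each group was prepared with another, stranded kit, and its labels give neither genotype nor dose. Strain and age are not in the labels, and the labels do not say whether the libraries of a group came from separate cultures or mice, so the p-values below measure only the spread between these libraries. The study's methods describe naive cells on plates coated with anti-CD3, and the labels name no polarizing cytokine, so these are not labelled as Th2 cultures.

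For replicates 2 and 3 the authors deposited read counts per gene, with totals of 26874805 and 28487403 in the DMSO libraries and 33854760 and 32617702 in the MAPK13-IN-1 libraries. They are given below as CPM, counts scaled to library size with TMM factors. A count of 3, the most that a count of 0 allows, was worth 0.0845 to 0.116 CPM, which covers counting error only. The replicate 1 pair is given in FPKM, which corrects for the length of a gene and the size of a library. That unit was inferred from the values, the depth behind them is unknown, and with 1 library per group there was no test. The tables were normalized separately, so levels are not compared between them.

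Of the 9 Th2 lineage genes, 8 were lower in the count table with MAPK13-IN-1 than with DMSO, and *Il5* did not pass the test. The test was the quasi-likelihood test of edgeR, 2 libraries against 2, and a gene was called where its p-value, adjusted by Benjamini-Hochberg over 16269 genes, was below 0.05. Among all genes tested 32.3% were called lower and 31.5% higher, a balance that moved with the scaling (4302 lower and 6176 higher by library totals). Of the Th2 lineage genes 0 were called higher, with 0 also at an unadjusted p-value under 0.05 and 0 by DESeq2. Their median log2 fold change was −2.79, beside 0.01 over all genes tested. All 9 passed the filter on low counts.

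**Figure D1:**
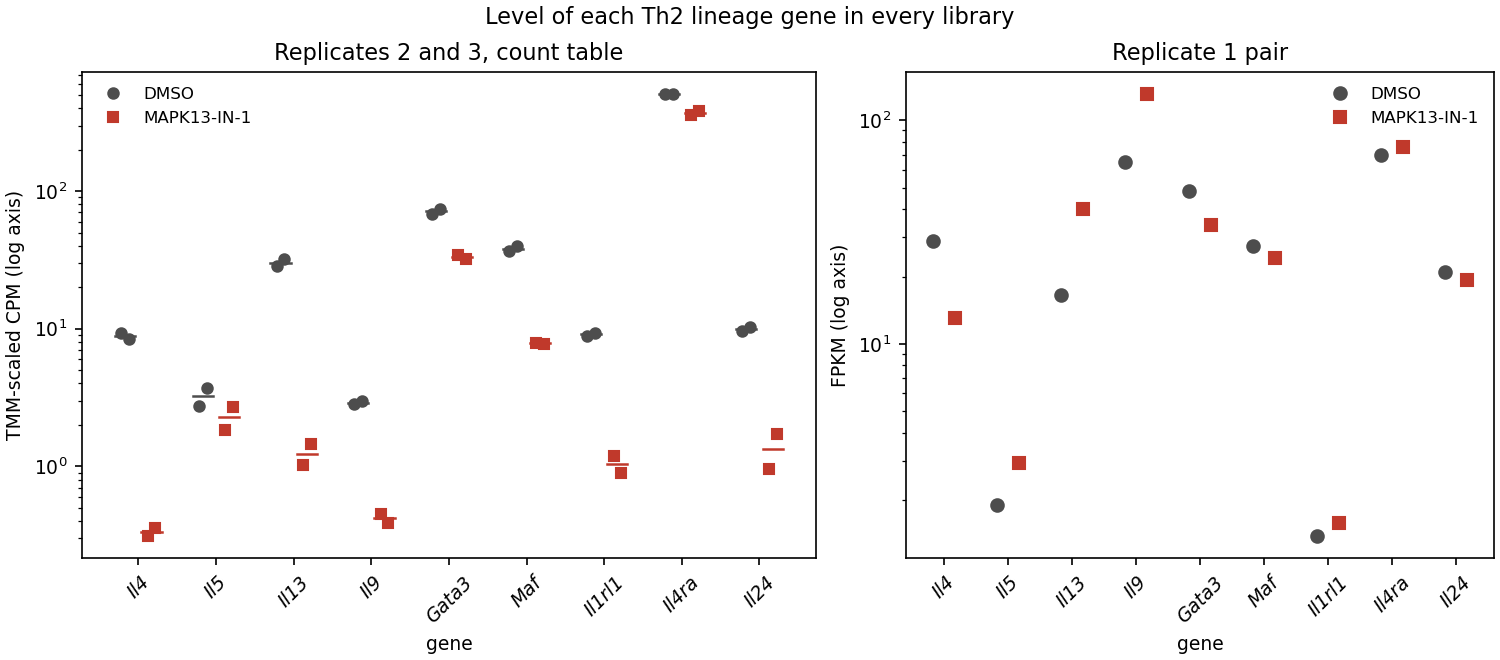
Level of each Th2 lineage gene in every library on log axes, as TMM-scaled CPM in replicates 2 and 3 with a line at the mean of 2 libraries (left) and as FPKM in the replicate 1 pair (right). In the count table the groups come closest in *Il5*, at 2.75 CPM in the lower DMSO library and 2.72 CPM in the higher MAPK13-IN-1 library. In the replicate 1 pair 5 of the 9 genes lie higher with the inhibitor.

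Among the cytokines, *Il4*, which drives Th2 differentiation and class switching to IgE, was at 9.31 and 8.42 CPM in the DMSO libraries and at 0.310 and 0.354 CPM in the MAPK13-IN-1 libraries. Both inhibitor libraries were near the lower end of what could be counted, with 11 and 12 reads against 240 and 229 reads. *Il4* fell 26.4-fold, a log2 fold change of −4.72 (95% interval −5.25 to −4.19, adjusted p = 1.46e-07 from edgeR with Benjamini-Hochberg adjustment). *Il13*, whose product acts on airway epithelium and mucus production, was at 28.5 and 32.0 CPM with DMSO and at 1.01 and 1.45 CPM with the inhibitor. It had the most reads of the 5 cytokine genes in DMSO-treated cells, 735 and 869, and 36 and 49 reads with the inhibitor. The fall of *Il13* was 24.6-fold, a log2 fold change of −4.62 (95% interval −4.99 to −4.25, adjusted p = 1.87e-08 from the same edgeR test). Ranked by log2 fold change from the lowest, *Il4* and *Il13* stood at places 22 and 23 of the 16269 genes tested.

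*Il5*, the growth and survival factor of eosinophils, was at 2.75 and 3.71 CPM in the DMSO libraries and at 1.83 and 2.72 CPM in the MAPK13-IN-1 libraries. The higher inhibitor library and the lower DMSO library nearly met. The log2 fold change of *Il5* was −0.51, with a 95% interval from −1.09 to 0.06 and an adjusted p of 0.106 from edgeR with Benjamini-Hochberg adjustment. That interval does not reach those of *Il4* and *Il13*, although a difference between genes was not tested. The result for *Il5* rested on single libraries, since it was called without DMSO replicate 2 (−0.72, adjusted p = 0.0367 from edgeR) and without MAPK13-IN-1 replicate 3 (−0.83, adjusted p = 0.00495 from edgeR), and was −0.29 and −0.25 without DMSO replicate 3 and without MAPK13-IN-1 replicate 2. Over all alternatives its adjusted p from edgeR or DESeq2 ranged from 0.00495 to 0.483.

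*Il9*, a mast cell growth factor made by Th9 and some Th2 cells, was at 2.83 and 2.98 CPM with DMSO and at 0.451 and 0.384 CPM with the inhibitor. The replicates of each group lay close together and far from the other group. *Il9* fell 6.90-fold (log2 fold change −2.79, 95% interval −3.45 to −2.12, adjusted p = 1.86e-05 from the same edgeR test). *Il24*, a cytokine of the interleukin-10 family that Th2 cells can make, was at 9.66 and 10.4 CPM with DMSO and at 0.958 and 1.71 CPM with the inhibitor. The MAPK13-IN-1 libraries differed from each other more than the DMSO libraries did, and both stayed below them. *Il24* fell 7.52-fold (log2 fold change −2.91, 95% interval −3.43 to −2.39, adjusted p = 2.36e-06 from the same edgeR test).

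*Gata3*, the transcription factor that commits CD4+ T cells to the Th2 fate and is also needed for T cell development and maintenance, was at 67.7 and 74.6 CPM in the DMSO libraries and at 34.5 and 32.3 CPM in the MAPK13-IN-1 libraries. The level with the inhibitor was thus a little under 50% of that with DMSO in a gene with 1096 to 2030 reads per library. *Gata3* fell 2.13-fold (log2 fold change −1.09, 95% interval −1.27 to −0.91, adjusted p = 1.33e-06 from edgeR with Benjamini-Hochberg adjustment). *Maf*, a transcription factor that activates the *Il4* promoter and is also used by Th17, follicular helper and regulatory T cells, was at 36.5 and 39.6 CPM with DMSO and at 7.92 and 7.79 CPM with the inhibitor. The inhibitor libraries gave almost the same value. *Maf* fell 4.84-fold (log2 fold change −2.28, 95% interval −2.50 to −2.05, adjusted p = 7.32e-08 from the same edgeR test).

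*Il1rl1*, which encodes ST2, the interleukin-33 receptor of Th2 cells, group 2 innate lymphoid cells and some regulatory T cells, was at 8.88 and 9.30 CPM with DMSO and at 1.18 and 0.885 CPM with the inhibitor. The groups were far apart beside the spread within them. *Il1rl1* fell 8.74-fold (log2 fold change −3.13, 95% interval −3.58 to −2.68, adjusted p = 6.14e-07 from the same edgeR test). *Il4ra*, the receptor chain shared by interleukin-4 and interleukin-13, was at 506 and 505 CPM with DMSO and at 358 and 384 CPM with the inhibitor. It was the gene with by far the most reads, 12695 to 13744 per library, and raw counts of the groups lay close together because the inhibitor libraries were deeper. *Il4ra* fell 1.36-fold (log2 fold change −0.45, 95% interval −0.57 to −0.33, adjusted p = 3.99e-05 from the same edgeR test). Scaling by library totals, which moved the median of all genes from 0.01 to 0.14, gave −0.32 for *Il4ra*.

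Levels of different genes were compared per length, as CPM per kb of the longest transcript linked to RefSeq. In DMSO-treated cells *Il4ra* was at 96.2 ± 0.0323 CPM per kb (SD, n = 2), *Il13* at 25.1 ± 2.02 and *Gata3* at 22.1 ± 1.53. They were followed by *Il4* at 15.02 ± 1.06, *Il24* at 8.64 ± 0.435, *Maf* at 5.98 ± 0.354, *Il9* at 5.42 ± 0.195, *Il5* at 2.104 ± 0.442 and *Il1rl1* at 1.71 ± 0.0563 CPM per kb. In this order *Il13* and *Gata3*, and *Il5* and *Il1rl1*, differed by less than the sum of their SDs. In MAPK13-IN-1-treated cells *Il4ra* at 70.5 ± 3.50 and *Gata3* at 10.4 ± 0.484 CPM per kb (SD, n = 2) stood above all others, and *Il5* came next at 1.48 ± 0.407. *Il5*, *Maf*, *Il24*, *Il13* and *Il9*, between 1.48 and 0.778 CPM per kb, each differed from the next in order by less than the sum of their SDs. *Il4* was at 0.563 ± 0.0530 and *Il1rl1* at 0.195 ± 0.0397 CPM per kb. *Il4* and *Il13* thus lay above *Il5* per length with DMSO, whereas with the inhibitor their means lay below it.

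In the replicate 1 pair the Th2 lineage genes did not move in 1 direction. *Il4* was at 28.9 and 13.1 FPKM in the DMSO and the inhibitor library, *Gata3* at 48.1 and 33.8, *Maf* at 27.5 and 24.2, and *Il24* at 21.0 and 19.2 FPKM. These 4 genes were lower with the inhibitor, as in the count table, though by less. *Il13* was at 16.5 and 39.9 FPKM in the same order, and *Il9* at 65.0 and 131 FPKM. Both were higher by at least 2.01-fold in this pair, opposite in direction to the count table. *Il5* was at 1.91 and 2.93 FPKM, *Il4ra* at 69.8 and 75.7 FPKM and *Il1rl1* at 1.38 and 1.58 FPKM, also higher with the inhibitor. On the scale of log2(FPKM + 1), which understates changes of low genes, the ratio was −1.09 for *Il4* and 1.23 for *Il13*. On that scale only these 2 of the 9 genes had a log2 ratio under −1 or over 1, beside 1.91% under −1 and 7.12% over 1 of the 11510 genes with at least 1 FPKM in either library. *Il9* was just short of 1 at 0.99, and past it at 1.004 with a pseudocount of 0.1. Opposite directions were frequent across the transcriptome. Of 4344 genes called lower in the count table and reaching 1 FPKM in each library of the pair, 40.7% were higher there, and 4 of the 8 Th2 lineage genes called lower were. Of the genes called higher, 27.6% of 2890 were lower in the pair.

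**Figure D2:**
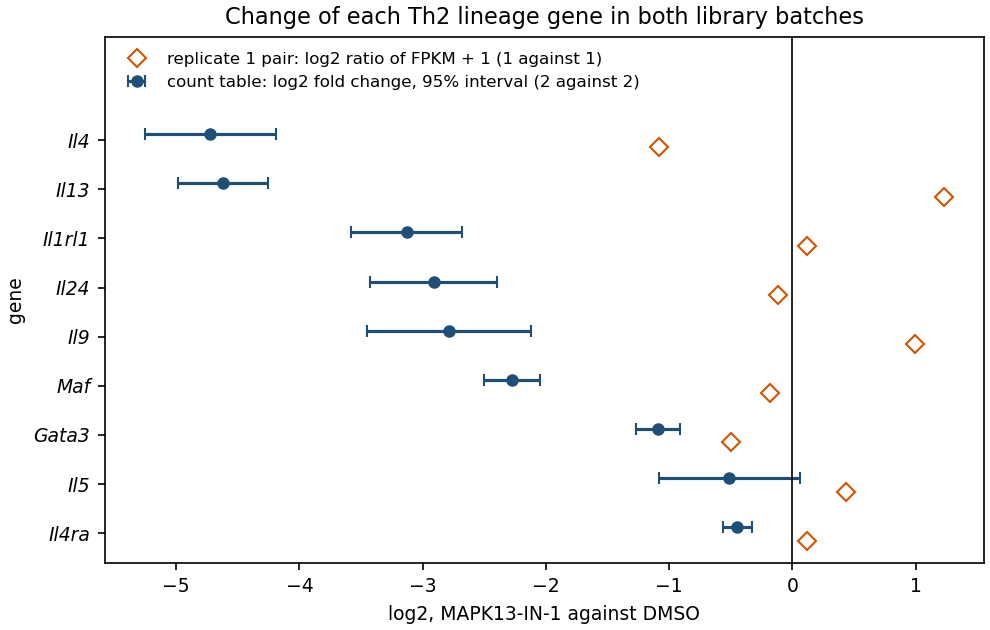
Change of each Th2 lineage gene with MAPK13-IN-1, where filled circles are log2 fold changes from the count table with 95% intervals, and open diamonds are log2 ratios of FPKM + 1 in the replicate 1 pair, which has no error. The circles of 8 genes have intervals below 0 and that of *Il5* reaches 0.06, while the diamonds run from −1.09 for *Il4* to 1.23 for *Il13*.

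The order of levels also differed between the batches. Among FPKM values, which are per length, *Il9* stood at 65.0 in the DMSO library of the pair, next to *Il4ra* at 69.8 and above *Gata3* at 48.1, whereas it was the 7th of the 9 genes per length in the DMSO libraries of the count table. *Il5* and *Il1rl1* had the lowest values in both. The batches differ in kit, and possibly in culture. They also differ in how B cell markers stood beside CD4 T cell markers, both described below. In the count table the B cell markers summed to 1245 and 1216 CPM with DMSO, beside 1846 and 1885 CPM for the CD4 T cell markers. In the DMSO library of the pair the sums were 55.6 and 1117 FPKM. The part of kit, culture or B cells in these differences was not tested.

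*Mapk13*, the gene of the kinase targeted by the compound, was at 3.06 and 2.72 CPM with DMSO and at 0.592 and 1.51 CPM with the inhibitor. Its log2 fold change was −1.47 (95% interval −2.27 to −0.66, adjusted p = 0.00490 from edgeR with Benjamini-Hochberg adjustment). Without MAPK13-IN-1 replicate 2 it was −0.94 and without MAPK13-IN-1 replicate 3 it was −2.29. In the replicate 1 pair *Mapk13* was at 0.191 and 3.28 FPKM, higher with the inhibitor. A kinase inhibitor acts on the protein, so the transcript does not check the labels.

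*Il4*, *Il13* and *Il5* lie within 158 kb on chromosome 11, together with *Rad50*, a DNA repair gene whose introns hold regulatory elements of the Th2 cytokines, and *Kif3a*, a kinesin gene. *Il4* is annotated at chr11:53602982-53618669 and *Il13* at chr11:53631324-53634702, both on the minus strand of GRCm38 and 12.7 kb apart. *Rad50* at chr11:53649519-53707319 separates them from *Il5* at chr11:53720794-53725106 on the plus strand. *Rad50* was at 80.4 and 82.9 CPM with DMSO and at 75.7 and 76.1 CPM with the inhibitor, a log2 fold change of −0.11 (95% interval −0.25 to 0.03, adjusted p = 0.164 from edgeR, not called). *Kif3a* at chr11:53567379-53601967 fell by 0.62 on the log2 scale (adjusted p = 0.000283 from edgeR). Along the cluster, the pair of adjacent genes *Il13* and *Il4* thus had log2 fold changes of −4.62 and −4.72, beside −0.62 and −0.11 in the genes on both sides. *Rps2-ps4* and *Gm22275*, also annotated between *Kif3a* and *Il5*, were not analysed here.

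**Figure D3:**
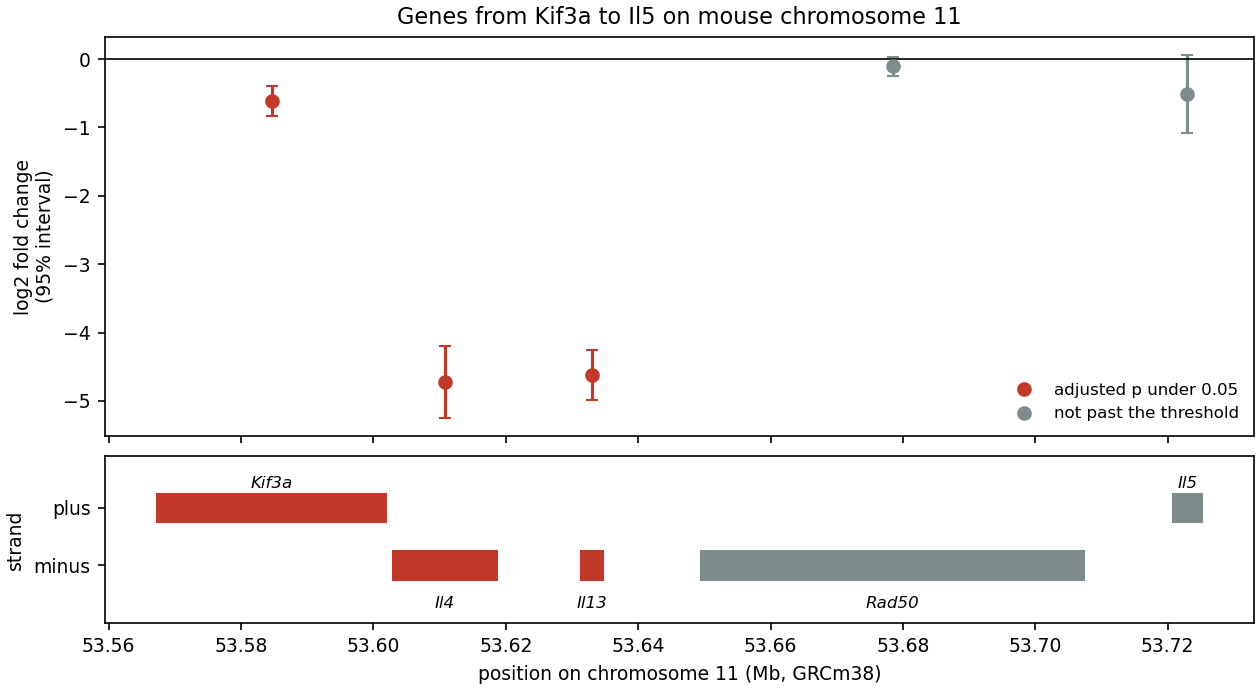
Genes from *Kif3a* to *Il5* on chromosome 11 of GRCm38, where the upper panel gives the log2 fold change of each gene in the count table with its 95% interval, and the lower panel its position and strand. *Il4* at −4.72 and *Il13* at −4.62 stand between *Kif3a* at −0.62 and *Rad50* at −0.11.

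For the neighbours too, the shares among all genes tested were 32.3% lower and 31.5% higher. In a wider list of 21 measured genes on chromosome 11, up to 1513 kb from the cluster, 18 were tested, of which 10 were lower and 1 higher, with a median log2 fold change of −0.54. The genes with the smallest p-values were *Uqcrq*, a subunit of respiratory complex III (−1.27), *Septin8*, a cytoskeletal gene (−1.45), and the cytokine gene *Il3* (−2.26). *Irf1*, an interferon response factor and the most abundant of them, was at 404 ± 4.89 CPM with DMSO and 384 ± 3.09 CPM with the inhibitor (SD, n = 2 each), and edgeR gave it an adjusted p of 0.224. Near *Il24*, at chr1:130882074-130887454 in the interleukin-10 cluster, 4 of 10 tested genes were lower and 3 higher, close to those shares, with a median of −0.26. There *Mapkapk2*, which encodes a kinase downstream of p38, had a log2 fold change of −1.09, *Ikbke* of −0.67 and *Pigr* of −1.30. Near *Il1rl1*, at chr1:40429570-40465415, 1 of 6 tested genes was lower and 2 were higher. The decoy receptor gene *Il1r2* (1.38) and the interleukin-18 receptor gene *Il18rap* (1.37) rose, and *Il18r1* (−1.33) fell beside *Il1rl1*. Among 16 tested genes on the chromosomes of *Il9* (chr13:56479277-56482246), *Gata3* (chr2:9857078-9890034), *Maf* (chr8:115682942-115707794) and *Il4ra* (chr7:125552120-125579474), at most 2348 kb away, 4 were lower and 8 higher, with *Smad5* at 1.15, *Nsmce1* at −1.20 and *Il21r* at −0.78 having the smallest p-values.

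Several of the genes overlap others in the annotation. *Gata3* overlaps *Gm13256* and *4930412O13Rik* on the opposite strand and *9230102O04Rik* on its own, *Il5* overlaps *Gm12214*, *Maf* overlaps *Gm15655* and *Il4ra* overlaps *Gm44876*, these 3 on the opposite strand. How the authors' counting used strand is not given in the sources used here, so reads of such partners cannot be told apart from those of the gene. *4930412O13Rik* had between 0 and 13 reads per library and *9230102O04Rik* between 0 and 10, beside at least 1096 for *Gata3*.

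The promoters of the linked cytokine genes are shown because in the count table, though not in the replicate 1 pair, *Il4* and *Il13* fell together. In the count table *Il5* did not pass the test. RefSeq promoter entries on GRCm38.p6 matched 7 of the 9 genes, with *Il4* and *Il1rl1* at 2 starts each, and *Maf* and *Il24* had no entry. The 250 bases before the start were searched on both strands for 6 short motifs. Capitals below mark a GATA motif (GATA with A or T before it and A or G after it), an AP-1 motif (TGANTCA) or an NFAT motif (GGAAAA), or their reverse complement. The windows are chr11:53618666-53618915 for *Il4*, chr11:53634703-53634952 for *Il13*, both minus strand, and chr11:53720544-53720793 for *Il5*, plus strand, each printed 5′ to 3′ on the strand of the gene.
Il4: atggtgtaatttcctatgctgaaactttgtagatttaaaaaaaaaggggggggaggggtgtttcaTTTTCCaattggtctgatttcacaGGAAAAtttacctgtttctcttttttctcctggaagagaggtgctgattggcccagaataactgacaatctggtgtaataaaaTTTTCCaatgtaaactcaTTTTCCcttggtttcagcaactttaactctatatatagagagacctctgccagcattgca
Il13: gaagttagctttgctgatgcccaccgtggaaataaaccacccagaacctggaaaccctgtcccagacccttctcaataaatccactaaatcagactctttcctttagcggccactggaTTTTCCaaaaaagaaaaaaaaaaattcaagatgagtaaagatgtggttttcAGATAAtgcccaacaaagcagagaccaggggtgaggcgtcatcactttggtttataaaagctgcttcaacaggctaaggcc
Il5: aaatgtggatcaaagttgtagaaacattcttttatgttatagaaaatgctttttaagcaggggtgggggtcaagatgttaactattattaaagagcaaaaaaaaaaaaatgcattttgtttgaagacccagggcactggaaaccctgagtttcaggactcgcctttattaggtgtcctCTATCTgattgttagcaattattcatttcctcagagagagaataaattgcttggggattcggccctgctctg
The *Il4* window held 4 NFAT matches and 0 GATA matches, the *Il13* window 1 of each, and the *Il5* window 1 GATA match and 0 NFAT matches. Over all 32851 promoter entries 26.5% held the GATA motif, 20.4% the NFAT motif and 6.75% the AP-1 motif, which was in none of these 3 windows. A STAT6 motif (TTC and GAA with any 4 bases between), in 5.85% of all entries, occurred in the *Il4* window, where it overlaps an NFAT match, and in that of *Il9*. A Maf half-site (TGCTGA), in 16.1% of all entries, occurred 3 times in the *Il4* window and 1 time each in those of *Il13*, *Gata3* and the second *Il1rl1* start. A Tcf1 motif (TCAAAG with A or T before it), in 7.48% of all entries, occurred in the *Il5* window only among the promoters of the 7 genes. A match describes these letters and is not a site of binding. Of the other entries, the first start of *Il1rl1* held 5 GATA matches, its second start and the second *Il4* start 1 each, and *Il9* held 2 NFAT matches and 1 AP-1 match, while *Gata3* and *Il4ra* held none of these 3 motifs.

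Other genes of the Th2 pathway were examined in 6 lists with 95 genes, of which 87 were tested. Of these 53 were lower, 16 were higher and 18 did not pass, with a median log2 fold change of −0.47. Over all genes tested 32.3% were lower and 31.5% higher, with a median of 0.01, and the counts of the single lists below are read against these shares. Among other cytokines 6 of 7 tested were lower and 0 higher, with 0 higher also at an unadjusted p-value under 0.05 from edgeR, and a median of −1.41. *Il3*, a growth factor of basophils and mast cells, fell from a mean of 3.61 ± 0.269 CPM to 0.751 ± 0.106 CPM (SD over 2 libraries), *Il6* from 5.08 ± 0.877 to 0.563 ± 0.0796 CPM, and *Lif* from 130 ± 5.83 to 48.8 ± 8.55 CPM. *Il10*, the 1 cytokine of this list that was tested and did not pass, named after its value was seen, was at 11.8 ± 1.08 and 10.0 ± 0.120 CPM. In the replicate 1 pair *Il3* was higher with the inhibitor, like *Il13*, at 0.289 and 8.38 FPKM, *Lif* was at 17.2 and 23.9 FPKM and *Il6* at 6.39 and 3.79 FPKM.

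Among cytokine receptors 5 of 11 tested were lower and 3 higher, not far from the shares among all genes, with a median of −0.09. *Il2ra* and *Il2rb*, chains of the interleukin-2 receptor, which feeds STAT5 signals into Th2 differentiation, fell by 1.27 and 1.06 on the log2 scale (SE 0.0688 and 0.0676), and *Crlf2*, a chain of the TSLP receptor, fell by 1.32. Among kinases and signal transducers 10 of 16 were lower and 3 higher, with a median of −0.39. *Irs2*, an adaptor of the interleukin-4 receptor, had a log2 fold change of −1.26 and *Rbpj*, the nuclear effector of Notch, of −0.93, whereas *Stat3* rose by 0.33. In the pair *Irs2* was at 6.85 and 19.6 FPKM, higher with the inhibitor.

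Of 21 tested transcription factors that promote the Th2 program, 15 were lower and 4 higher, with a median of −0.65. *Batf3*, a partner of Jun proteins, fell from 25.8 and 26.1 CPM to 2.14 and 3.54 CPM. *Satb1*, a chromatin organizer of the Th2 cytokine locus, had a log2 fold change of −1.06 and *Junb*, an AP-1 subunit, of −0.81, while *Jun*, another AP-1 subunit, rose by 0.95. Of 18 factors that oppose the program, 8 were lower and 3 higher, with a median log2 fold change of −0.17, beside the 32.3% lower and 31.5% higher among all genes tested. *Riox2* (−1.33), *Socs1*, an inhibitor of JAK signaling (−1.38), and *Lef1* (−0.91) were lower, and *Runx3*, a repressor of *Il4*, was higher (0.27). Among homing receptors and surface proteins 9 of 14 tested were lower and 3 higher, with a median of −1.52. *Penk* fell from 26.1 ± 0.752 to 1.96 ± 0.0642 CPM, *Ccr8*, a chemokine receptor of Th2 and regulatory T cells, from 31.6 ± 2.41 to 4.15 ± 0.136 CPM, and *Ecm1*, which aids the exit of Th2 cells from lymph nodes, from 186 ± 3.78 to 36.3 ± 3.92 CPM (SD, n = 2 per group). *Tnfrsf4*, a costimulatory receptor, had a log2 fold change of −1.76. In the pair *Ccr8* was at 58.7 and 43.2 FPKM, lower with the inhibitor, whereas *Penk* at 43.2 and 282 FPKM and *Ecm1* at 74.4 and 169 FPKM were higher with it. Of the pathway genes reaching 1 FPKM in each library of the pair, 26 of 78 were lower and 52 higher, with a median log2 ratio of 0.30 beside 0.05 over 10448 genes.

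Genes of other T helper lineages and of activation were counted in the same way, beside the 32.3% lower and 31.5% higher among all genes tested. Of 14 tested Th1 genes 7 were lower and 3 higher (median log2 fold change −0.57), of 10 Th17 genes 4 were lower and 3 higher (−0.01), and of 8 genes of regulatory T cells 5 were lower and 1 higher (−1.23). Of 16 genes induced by T cell activation 14 were lower and 1 higher (−0.83). *Tbx21*, the Th1 counterpart of *Gata3*, was at 83.6 and 78.6 CPM with DMSO and at 72.0 and 74.5 CPM with the inhibitor and was not called (−0.15, adjusted p = 0.0761 from edgeR), while *Ifng*, the main Th1 cytokine, fell 2.05-fold. *Il17a*, the main Th17 cytokine, fell by 2.59 on the log2 scale from a low level, and *Foxp3*, the factor of regulatory T cells, fell 2.70-fold. In the replicate 1 pair *Ifng* was at 16.4 and 92.6 FPKM, *Il17a* at 0.922 and 4.63, *Tbx21* at 22.5 and 30.1 and *Foxp3* at 13.6 and 14.6 FPKM, so that all 4 had higher values with the inhibitor, as *Il13* and *Il9* did. The genes with the smallest p-values were *Lta* (−2.65), *Il12rb1* (−1.54) and *Il12rb2* (−1.14) of the Th1 list, and *Rora* (1.71) and *Il22* (−2.98) were among them in the Th17 list, where *Il21* (−0.41) was the most abundant with DMSO and *Rora* with the inhibitor. For regulatory T cells they were *Il2ra*, *Ctla4* (−1.62) and *Tnfrsf18* (−1.84), and for activation *Egr1* (−2.80), *Egr3* (−2.31) and *Tnfrsf4*, where *Il2ra* was the most abundant with DMSO and *Irf4* (−0.65) with the inhibitor.

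The study's methods describe isolation of CD4+ T cells from spleen with a kit, a step meant to remove other cells. Markers of cell types were read beside the changes of the Th2 lineage genes, since in bulk RNA fewer cells of a type and less RNA per cell cannot be told apart. The counts of every marker list, here and below, stand beside 32.3% lower and 31.5% higher among all genes tested. Of 8 tested CD4 T cell markers 7 were lower and 0 higher (0 also at an unadjusted p-value under 0.05 from edgeR), with a median log2 fold change of −1.25, and they summed to 1846 and 1885 CPM with DMSO and 955 and 1093 CPM with the inhibitor. *Cd5* was the most abundant of them with DMSO, at 432 ± 9.54 CPM, and *Cd4* with the inhibitor, where *Cd5* was at 177 ± 32.6 CPM, while *Cd4* itself, named after its value was seen, was at 275 ± 0.672 and 275 ± 11.4 CPM (SD, n = 2 per group). Of the Th2 lineage genes 6 of 9 had a log2 fold change below this median of −1.25, and *Gata3*, *Il5* and *Il4ra* did not. In the pair the CD4 T cell markers summed to 1117 and 1147 FPKM in the DMSO and the inhibitor library.

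B cell transcripts were present in all libraries of the count table. Of 11 tested B cell markers 7 were higher and 2 lower, their sums were 1245 and 1216 CPM with DMSO and 1416 and 1439 CPM with the inhibitor, and *Pax5* was the most abundant with the inhibitor. With the inhibitor these sums were above those of the CD4 T cell markers, at 955 and 1093 CPM. In the pair the B cell markers summed to 55.6 and 48.1 FPKM, far below the 1117 and 1147 FPKM of the CD4 T cell markers. B cells also express *Il4ra*, and the part of B cells in its level was not tested. Mast cells, basophils and group 2 innate lymphoid cells can also make type 2 cytokines. Of 11 mast cell and basophil markers 3 were tested and all 3 were higher, with sums of 3.99 and 4.04 CPM with DMSO and 32.8 and 34.8 CPM with the inhibitor. *Kit* made up most of this sum, and *Fcer1a*, *Mcpt8*, *Prss34*, *Mcpt4*, *Tpsb2* and *Hgf* were at 0 in all 4 libraries. Of 10 markers of group 2 innate lymphoid cells, 8 were tested, 4 were lower and 3 higher, the sums were 1114 and 1127 CPM with DMSO and 560 and 613 CPM with the inhibitor, and none was at 0 in all libraries. T cells express several of these genes, among them *Il2ra*, the most abundant, and *Gata3* and *Il1rl1* belong to both lists.

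Of 8 eosinophil markers 3 were tested and 2 were higher, with sums of 1.75 and 1.69 CPM with DMSO and 8.002 and 7.26 CPM with the inhibitor, *Ccr3* being the most abundant and *Ear1* and *Ear6* being at 0. For CD8 T cells and NK cells, 3 of 4 tested markers were lower and 1 higher, the sums were 19.1, 17.8, 11.5 and 13.2 CPM in DMSO replicates 2 and 3 and MAPK13-IN-1 replicates 2 and 3, *Cd8b1* was the most abundant and *Klra8* was at 0. Markers of macrophages and dendritic cells were higher in 7 of 8 tested, with sums of 16.3 and 15.3 CPM with DMSO and 52.8 and 44.9 CPM with the inhibitor and *Cd68* as the most abundant. Erythroid markers were higher in 6 of 7 tested, with sums of 7.83 and 7.54 CPM with DMSO and 90.0 and 64.6 CPM with the inhibitor and *Hbb-bs* as the most abundant. Of the neutrophil markers only *Mpo* was tested, which was higher, the sums were 0.543, 0.441, 1.01 and 1.18 CPM in the same order of libraries, and *S100a9* was at 0. The part of these cell types in the changes of the Th2 lineage genes was not tested.

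The genes whose profile over the 4 libraries of the count table was most like that of a Th2 lineage gene were found by the Euclidean distance between log2(CPM + 1) values centred on each gene's mean. For *Il4* they were *Neat1* (distance 0.108), *Lgals7* (0.108) and *Cox6a2* (0.148). Adding 1 compresses low levels, and the log2 fold changes of *Neat1* (−2.81) and *Cox6a2* (−3.47) were smaller in size than the −4.72 of *Il4*, while that of *Lgals7* was −4.92. For *Il13* they were *Nupr1* (0.111), *Il23a* (0.139) and *Cyb5r1* (0.189), with log2 fold changes of −4.43, −4.41 and −3.75. In the pair *Nupr1* was at 35.4 and 10.3 FPKM, *Il23a* at 10.9 and 3.86 and *Cyb5r1* at 80.3 and 16.5 FPKM, all lower with the inhibitor, whereas *Il13* was higher there. *Cox6a2* was at 22.5 and 2.39 FPKM, lower like *Il4*, while *Neat1* at 157 and 158 FPKM and *Lgals7* at 11.2 and 16.2 FPKM were not. For *Il5* the nearest genes were *Pde6g* (0.0246), *Gm1673* (0.0329) and *Kdf1* (0.0356), all at low levels, with log2 fold changes from −1.21 to −0.91 beside −0.51 for *Il5*. For *Gata3* they were *Gm26812* (0.0363), *Mtss2* (0.0404) and *Rex1bd* (0.0469), with log2 fold changes of −1.55, −1.86 and −1.15 beside −1.09.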

How the data were processed

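Th2 lineage genes were taken by symbol from the tables the authors deposited. Replicates 2 and 3 of each group are raw read counts per gene, made by the authors without normalization, and 0 columns were left unused. The submitters' processing notes name fastp 0.21.0, HISAT2 2.1.0, StringTie 2.1.5 and DESeq2 1.30.1 for these, and FastQC and HISAT2 for replicate 1, all on GRCm38 (mm10). For replicate 1 the authors deposited values read here as FPKM. They are not whole numbers, they show no steps of whole reads, and across 13010 genes the DMSO values ranked closer to CPM per kb (Spearman's rho 0.941) than to CPM (0.884) of the count table. Genes are not independent replicates, and this describes the unit only.

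The fit used edgeR 4.0.16 under R 4.3.3. Low genes were removed with filterByExpr (minimum count 10, minimum total 15), libraries were scaled by TMM (factors 0.960, 0.955, 1.05 and 1.04 in the order of DMSO 2 and 3 and MAPK13-IN-1 2 and 3), and groups were compared by the quasi-likelihood test with no covariate, since the labels name no batch within these 4 libraries. Standard errors were derived from the F statistic, and 95% intervals from them. Replicates differed by more than sampling noise (chi-square per gene with mean 3.08 and median 1.02 in DMSO, 9.60 and 2.16 with MAPK13-IN-1). The pair has 1 library per group, hence log2 ratios of FPKM + 1 and no test. Alternatives were RLE, upper quartile and library total scaling, no filter, at least 10 counts in every library, DESeq2 1.42.0, a replicate block, each library left out, an absolute log2 fold change over 1, and a pseudocount of 0.1. Those for *Mapk13* were added after its values were seen. Positions and lengths came from GENCODE on GRCm38.

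Named were all 9 genes, the 3 genes with the smallest p-values past the threshold and the most abundant gene (mean of the 4 libraries) of each pathway, lineage, activation and neighbour list, the most abundant gene of each marker list, *Mapk13*, the 3 nearest profiles of *Il4*, *Il5*, *Il13* and *Gata3*, the genes between *Il5* and *Kif3a*, and *Tbx21*, *Ifng*, *Il17a* and *Foxp3*. Some single genes that meet these rules are left out of the text. The members and lists were chosen with earlier results of these data known. *Ccni*, listed as a neighbour of *Il5* but annotated on another chromosome, was left out of that count. *Trac*, *Trbc1*, *Trbc2* and *Ighm* were not analysed here.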

Additional observations from a re-analysis of the deposited data

Results flagged for a closer look

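In 4 Th2 lineage genes called lower in the count table, the replicate 1 pair went the opposite way. The log2 ratio in that pair was 1.23 for *Il13*, 0.99 for *Il9*, 0.12 for *Il4ra* and 0.11 for *Il1rl1*. These were 4 of the 8 Th2 lineage genes called lower. Opposite directions were frequent in general, at 40.7% of the 4344 genes called lower that reached 1 FPKM in each library of the pair. *Mapk13* showed the same contrast, with a log2 ratio of 1.84 in the pair. The difference between the batches was not tested, since the pair has 1 library per group, another kit and another unit. The log2 ratios of *Il4ra* and *Il1rl1* in the pair are small. The largest shift was in *Il13*, with a log2 fold change of −4.62 in the count table. By contrast *Il4*, its neighbour on chromosome 11, was lower in both.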

How the results depend on the processing

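Of the 99 refits of the log2 fold change of the 9 Th2 lineage genes (11 alternatives each), 97 kept the direction and the side of the threshold, and in the other 2 *Il5* was called lower. The ranges were −4.83 to −4.60 for *Il4*, −4.90 to −4.38 for *Il13*, −0.83 to −0.25 for *Il5*, −2.91 to −2.66 for *Il9*, −3.39 to −2.55 for *Il24*, −1.17 to −0.96 for *Gata3*, −2.35 to −2.15 for *Maf*, −3.35 to −2.94 for *Il1rl1* and −0.51 to −0.32 for *Il4ra*. The number of the 9 genes called lower was 8 to 9 with each library left out, a fit in which a lone library is assumed to vary like the other group, and 7 with an absolute log2 fold change over 1 as well. That fold threshold left 1686 genes lower and 2113 higher in all, and 25 and 3 in the Th2 pathway, by its own construction. Scaling by library totals gave 4302 genes lower and 6176 higher, and by upper quartile 4633 and 5823. With each library left out the calls ranged from 4433 to 5675 lower and 4298 to 5268 higher over all genes, and from 48 to 59 lower and 13 to 17 higher in the Th2 pathway. The labels do not say whether libraries of the same number shared an origin. The correlation of their deviations across genes was 0.00735, which cannot decide this. With the replicate block 5384 genes were lower and 5261 higher, 54 and 16 in the pathway, and 8 and 0 among the 9 genes. The median log2 ratio of the 9 genes in the pair was 0.11, or 0.12 with a pseudocount of 0.1, and 0 of the 9 ratios changed sign. Depth limits *Il4* and *Il9* most, with 11 to 16 reads in the MAPK13-IN-1 libraries, and is unknown for the pair.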
